A study of Mus musculus with 6 samples.

Results

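The genes described here are the 10 that encode feedback inhibitors and ETS-factor targets of FGF and EGF signalling: the Sprouty genes Spry1, Spry2 and Spry4, the Spred genes Spred1, Spred2 and Spred3, the MAP kinase phosphatase genes Dusp6 and Dusp4, and the transcription factor genes Etv4 and Etv5. They were chosen by gene name from the deposited count table, which lists 27372 named genes. All 10 were present, and all 10 passed the filter on low counts. The counts come from bulk RNA-seq of neural stem cells that were isolated from mice at postnatal day 7 and grown for 7 days as neurospheres, floating clusters of progenitors, in medium with EGF and bFGF at 20 ng/ml each. The 6 libraries formed 2 groups of 3. The control group is labelled wild type and the other, titled Mutant1 to Mutant3, carries the genotype label Sirt6 knockout, described as conditional, and is called here the libraries labelled Mutant. The labels used here do not state the Cre driver, the alleles or whether replicates came from separate animals, and p-values reflect only how much these samples vary, which may be technical. Both groups had the same mitogens in the medium, so the comparison asks how these genes differ between the labelled genotypes under continued stimulation.

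FGF and EGF bind receptor tyrosine kinases that switch on RAS, RAF, MEK and finally the kinase ERK. ERK signalling raises transcription of its own inhibitors: Sprouty and Spred proteins act on the path from the receptor to RAF, and DUSP6 and DUSP4 remove the activating phosphates from ERK. ETV4 and ETV5 are ETS transcription factors induced in the same way, so the transcripts of this group are widely read as a gauge of ERK output. In neural stem cell cultures EGF and FGF keep progenitors dividing.

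Library totals ran from 17198852 to 18297275 counts. Sirt6, the targeted gene, was not lower in the libraries labelled Mutant: it had 260 to 380 counts in the controls and 442 to 492 in the other group, so all directions below are stated for the label and not for loss of Sirt6. Neural stem cell markers were present, with a summed level of 9213 to 11520 CPM over 10 genes in the controls and 9413 to 11530 CPM in the libraries labelled Mutant. CPM are counts scaled to a common library size, here adjusted by edgeR's TMM factors. Microglial markers summed to at most 0.516 CPM and pericyte and fibroblast markers to at most 2.03 CPM in any library. The 4 Y-linked genes summed to 67.5 and 234 CPM in Control1 and Control2 and to at most 0.755 CPM in the other 4 libraries. Y-linked reads come from male cells, so the share of male cells differed between the groups. Sex and label are therefore mixed in part in this comparison.

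The promoters of 3 genes are shown because Spry1 and Dusp6 were lower together in the libraries labelled Mutant while Spry2, a close relative of Spry1, was not separated between the groups. Each is the window of 250 bases before the RefSeq transcription start in GRCm38.p6, written 5′ to 3′ on the strand of the gene. They lie at chr3:37639697-37639946 on the plus strand for Spry1, chr10:99262981-99263230 on the plus strand for Dusp6 and chr14:105896820-105897069 on the minus strand for Spry2. Capitals mark a match to any motif searched.
Spry1: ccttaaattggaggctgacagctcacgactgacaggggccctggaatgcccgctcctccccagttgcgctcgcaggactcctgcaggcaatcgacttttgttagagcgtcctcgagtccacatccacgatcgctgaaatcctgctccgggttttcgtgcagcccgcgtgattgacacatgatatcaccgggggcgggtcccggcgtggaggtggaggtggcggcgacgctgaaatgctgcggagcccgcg
Dusp6: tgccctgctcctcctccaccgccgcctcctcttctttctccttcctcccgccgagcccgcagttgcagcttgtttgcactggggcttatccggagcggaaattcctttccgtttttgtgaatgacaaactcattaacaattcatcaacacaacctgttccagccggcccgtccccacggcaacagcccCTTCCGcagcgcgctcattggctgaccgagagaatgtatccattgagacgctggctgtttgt
Spry2: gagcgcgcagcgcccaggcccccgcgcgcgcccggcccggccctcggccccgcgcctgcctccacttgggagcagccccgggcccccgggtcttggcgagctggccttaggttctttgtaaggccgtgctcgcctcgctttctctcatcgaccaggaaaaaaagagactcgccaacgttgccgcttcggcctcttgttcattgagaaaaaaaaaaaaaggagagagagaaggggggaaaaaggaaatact

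Both strands of every window were searched for the ETS core CGGAAG and the longer ETS motif CCGGAAGT that contains it. The search also covered the AP-1 motif TGACTCA, the CRE TGACGTCA, and TGAATGAA and TGAATGGA. TGAATGAA and TGAATGGA are among the octamers bound by capicua, a repressor that ERK switches off. Other forms of the capicua site were not searched, so windows without a match here may hold one. The Dusp6 window held 1 match, an ETS core on the opposite strand, 62 to 57 bases before the start. The Spry1 and Spry2 windows held 0 matches to the motifs searched. Windows of 7 of the 10 genes were searched, Etv5 having a pair. The set of windows at hand held none under the names Dusp4 and Etv4. For the 10 genes, windows on chromosome 18, where Spry4 lies, were left out by choice, but not from the set of all windows. Beside Dusp6, the Spred1 and Spred2 windows each held 1 ETS core and the Spred3 window 1 capicua octamer, TGAATGAA, 10 to 3 bases before the start. The Etv5 windows held 0. Among all 32851 windows of this length, 13.6% held the ETS core, 2.88% the longer ETS motif and 4.46% the AP-1 motif. The CRE was in 1.55% of them and TGAATGAA or TGAATGGA in 2.07%. GC content was 62.4% for Spry1 and for Spry2 and 56.4% for Dusp6, against a median of 52.4% over all windows. These matches describe letters in short windows only.

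Levels could be compared between genes per length, as CPM per kilobase of annotated exon. In the controls Spry2 was the highest at 107 ± 22.8 (SD, n = 3), followed by Etv5 at 73.5 ± 3.14 and Dusp6 at 59.3 ± 11.5. Etv4, Spred1 and Spry4 lay close together at 44.8 ± 7.68, 40.9 ± 3.45 and 39.4 ± 11.2. Spry1 stood at 28.4 ± 0.327, Spred2 at 26.9 ± 2.97, Spred3 at 11.5 ± 2.49 and Dusp4 at 8.04 ± 1.21. In 5 of the 9 neighbouring positions of this order the control ranges overlapped. Neighbours were apart at Spry2 over Etv5, Spry4 over Spry1, Spred2 over Spred3 and Spred3 over Dusp4. Dusp6 was 3rd of the 10 in the controls and 5th in the libraries labelled Mutant, by mean level per length.

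**Figure D1:**
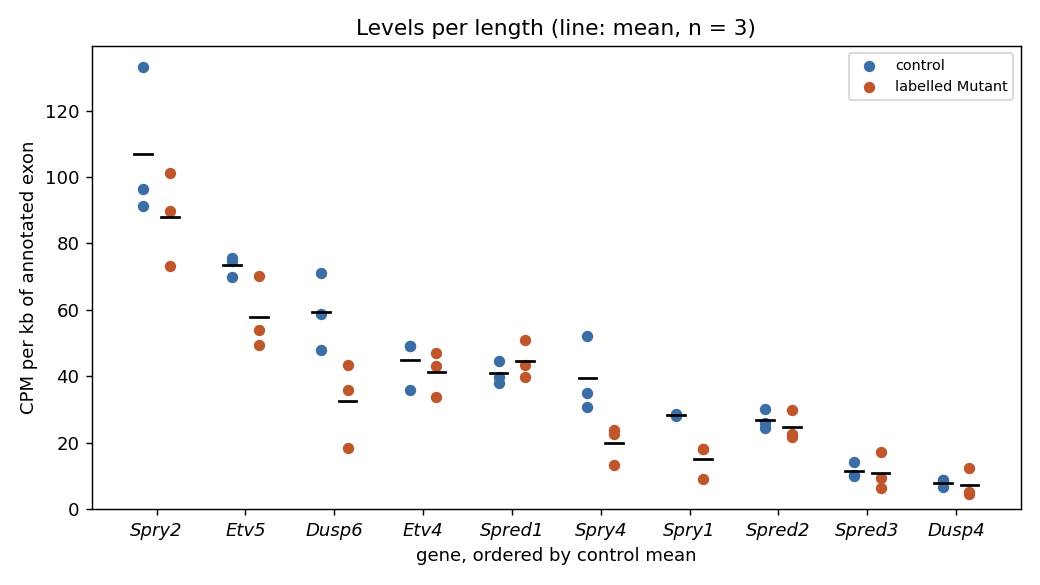
Level per length of the 10 genes (CPM per kilobase of annotated exon; points are single libraries, lines are means, n = 3 per group), ordered by control mean. Spry2 was highest at a control mean of 107 and Dusp4 lowest at 8.04.

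Between the groups, Spry1, Spry4 and Dusp6 separated completely, with every library labelled Mutant below every control. The other 7 genes overlapped. edgeR's quasi-likelihood test called 0 of the 10 genes at an adjusted p under 0.05, as it called 0 of the 15087 genes tested (0% of them). At an unadjusted p under 0.05 it had 3 of the 10 genes, all lower, against 1.5% of all genes tested for that direction. Complete separation in the lower direction held for 3 of the 10 and for 3.73% of all genes tested. The fitted change was below 0 for 9 of the 10, against 50% of all genes, and the median log2 fold change of the 10 was -0.20 against 1e-04 over all genes tested. Limma-voom called 0 of the 10 and 0% of all genes, and DESeq2 called 0 of the 10 and 0.0183% of all genes. At an unadjusted p under 0.05 each had 3 of the 10, against 3.61% of all genes by limma-voom and 2.59% by DESeq2. Without the library labelled Mutant2 the median of the 10 was -0.09, without the library labelled Mutant1 it was -0.52, without Control2 it was -0.31, and it was -0.35 with the summed Y-linked level as covariate.

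**Figure D2:**
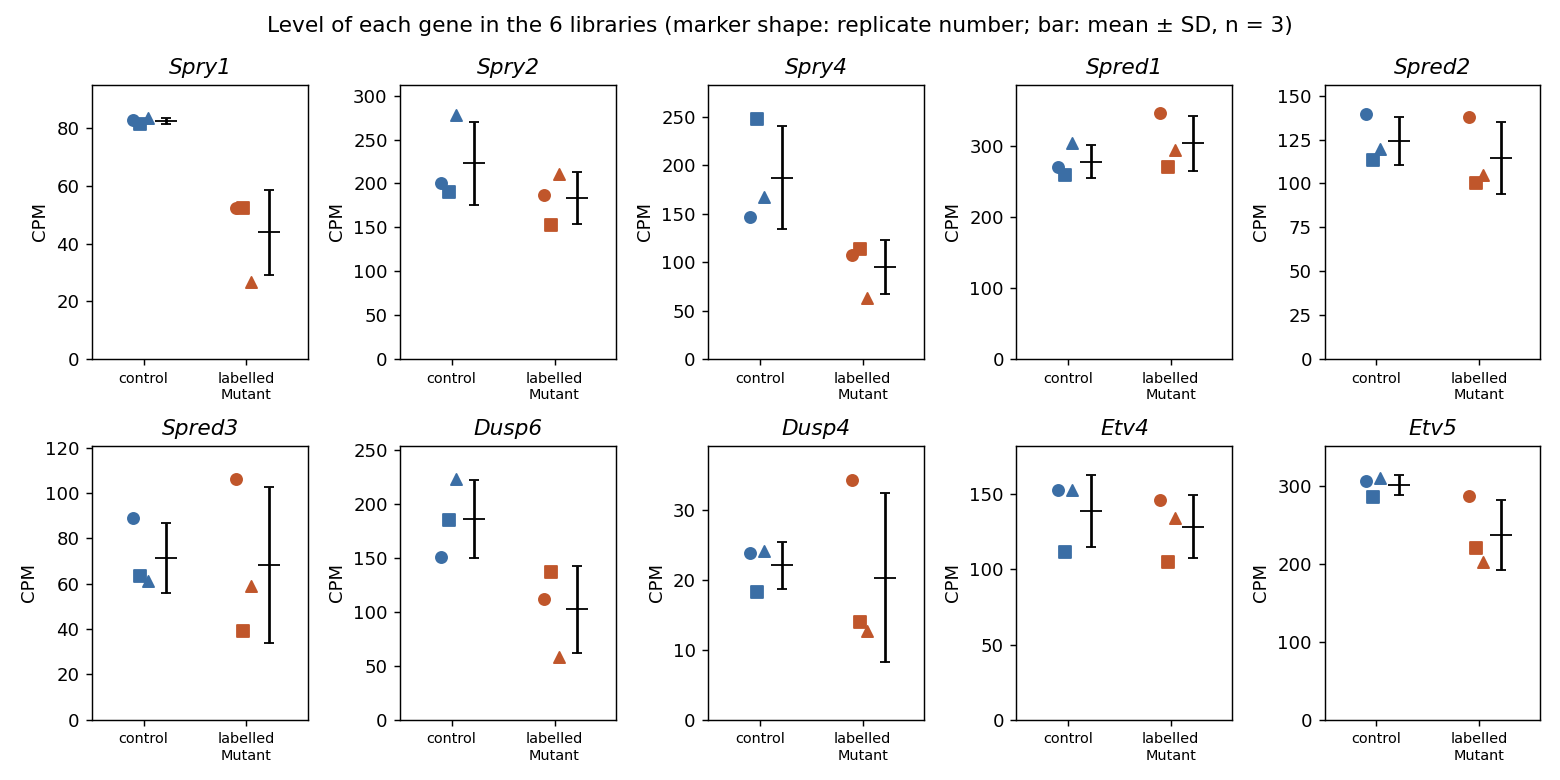
CPM of each gene in every library (y axes start at 0; marker shape gives the replicate number; horizontal bar and whiskers are mean and SD, n = 3). Spry1, Spry4 and Dusp6 show no overlap between the groups, and for Spry1 the controls sit between 81.6 and 83.5 CPM.

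Among the Sprouty genes, whose products block growth factor signalling downstream of the receptor, Spry1 had the tightest controls. Spry1 (ENSMUSG00000037211, chromosome 3 from 37639947 to 37644598 in mm10, plus strand) stood at 82.7, 81.6 and 83.5 CPM in Control1, Control2 and Control3 and at 52.4, 52.5 and 26.8 CPM in the libraries labelled Mutant1, Mutant2 and Mutant3. The library labelled Mutant3 was the lowest, by a wide margin. This gave a log2 fold change of -0.91 ± 0.25 (SE), a 1.88-fold difference (edgeR unadjusted p = 0.00824, adjusted p = 0.998). It was -0.65 without the library labelled Mutant3.

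Spry4 (ENSMUSG00000024427, chromosome 18 from 38586268 to 38601268, minus strand), which encodes another inhibitor of the same family, showed the largest fitted difference of the 10. Its level was 147, 248 and 167 CPM among controls and at 107, 114 and 62.8 CPM in the libraries labelled Mutant. Control2 was the highest and the library labelled Mutant3 the lowest. The log2 fold change was -0.98 ± 0.28 (SE), 1.98-fold (edgeR unadjusted p = 0.00976, adjusted p = 0.998). Control2 also had the most Y-linked reads: without Control2 the log2 fold change was -0.73, and with the summed Y-linked level as covariate it was -0.68 ± 0.30.

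Spry2 (ENSMUSG00000022114, chromosome 14 from 105891947 to 105896819, minus strand) is the most abundant Sprouty gene in these cells per length. It stood at 201, 190 and 278 CPM among controls and at 187, 153 and 211 CPM in the libraries labelled Mutant. The groups overlapped, Control3 being high. Spry2 had a log2 fold change of -0.28 ± 0.19 (SE; edgeR adjusted p = 0.998). It was -0.08 without Control3, -0.16 without the library labelled Mutant2, -0.60 against Control3 alone and -0.47 with the summed Y-linked level as covariate.

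The Spred genes encode membrane proteins that bind neurofibromin, the RAS-inactivating product of Nf1. Spred1 was the one gene of the 10 with a fitted change above 0: 270, 258 and 303 CPM among controls and at 346, 270 and 294 CPM in the libraries labelled Mutant, a log2 fold change of 0.13 ± 0.15 (SE). Spred2 stood at 140, 113 and 120 CPM among controls and at 138, 100.5 and 105 CPM in the other group, with a log2 fold change of -0.12 ± 0.16. Leaving out single libraries gave 0.03 (without the library labelled Mutant1) to 0.21 (without the library labelled Mutant2) for Spred1, and -0.27 (without the library labelled Mutant1) to -0.02 (without Control1) for Spred2. In both genes the groups overlapped and the library labelled Mutant1 was the highest of its group. Spred3 was the least abundant of the 3 and the most scattered, at 89.1, 63.4 and 61.3 CPM among controls and at 106, 39.2 and 59.0 CPM in the libraries labelled Mutant. Its log2 fold change was -0.06 ± 0.35, and the sign turned when Control1 was left out (0.13), when the library labelled Mutant2 was left out (0.22) or when the library labelled Mutant3 was left out (0.03). Spred3 overlaps Ggn on the opposite strand by 202 bases, with a mean of 67.2 counts for Ggn against 1242 for Spred3, and whether counting used the strand is not stated. edgeR's adjusted p was 0.998 for each of the Spred genes.

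Dusp6 encodes a cytoplasmic phosphatase that acts on ERK and is a standard reporter of FGF signalling in embryos. Dusp6 (ENSMUSG00000019960, chromosome 10 from 99263231 to 99267489, plus strand) stood at 150, 184 and 222 CPM among controls and at 112, 136 and 57.7 CPM in the libraries labelled Mutant. The gap between the groups was narrow, since Control1 and the library labelled Mutant2 lay close together, and the library labelled Mutant3 was far below the rest. The log2 fold change was -0.86 ± 0.31 (SE), 1.82-fold (edgeR unadjusted p = 0.0276, adjusted p = 0.998). Without the library labelled Mutant3 it was -0.58.

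Dusp4, whose product acts on ERK and other MAP kinases in the nucleus, was the rarest of the 10, with 222 to 635 counts per library. It stood at 23.8, 18.2 and 24.1 CPM among controls and at 34.3, 13.9 and 12.7 CPM in the libraries labelled Mutant. The groups overlapped because the library labelled Mutant1 was the highest of all 6 while the other two of its group were the lowest. Dusp4 had a log2 fold change of -0.12 ± 0.39 (SE; edgeR adjusted p = 0.998), and it was -0.72 without the library labelled Mutant1, 0.10 without the library labelled Mutant2 and 0.13 without the library labelled Mutant3.

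The ETS factor genes are read as direct transcriptional outputs of FGF and ERK signalling. Etv5 (ENSMUSG00000013089, chromosome 16 from 22381309 to 22439719, minus strand) stood at 307, 287 and 310.5 CPM among controls and at 288, 221 and 203 CPM in the libraries labelled Mutant. The library labelled Mutant1 lay just above Control2, and the other two lay below all controls. The log2 fold change was -0.34 ± 0.16 (SE; edgeR unadjusted p = 0.0686, adjusted p = 0.998). Etv4 stood at 153, 111.5 and 153 CPM among controls and at 146, 105 and 134 CPM in the libraries labelled Mutant, with overlapping groups and a log2 fold change of -0.11 ± 0.18. Without the library labelled Mutant2 it was 0.02.

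The lowest of the 6 libraries was the library labelled Mutant3 in 5 genes (Spry1, Spry4, Dusp6, Dusp4 and Etv5), the library labelled Mutant2 in 4 (Spry2, Spred2, Spred3 and Etv4) and Control2 in Spred1. The library labelled Mutant1 was the highest of all in 3 genes, Spred1, Spred3 and Dusp4.

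Libraries carry replicate numbers 1 to 3 in both groups, and same-numbered libraries deviated together across genes, so differences were also taken within numbers. Within the numbered pairs Spry1 differed by -0.66, -0.64 and -1.63 in log2 CPM. Spry4 differed by -0.46, -1.12 and -1.41, and Dusp6 by -0.42, -0.43 and -1.94. Etv5 was also lower in each pair, by -0.09, -0.37 and -0.61. In all, 7 of the 10 genes were lower in all 3 pairs, against 18% of all genes tested. The third pair gave the most negative difference in 9 of the 10 genes, the exception being Spred3.

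**Figure D3:**
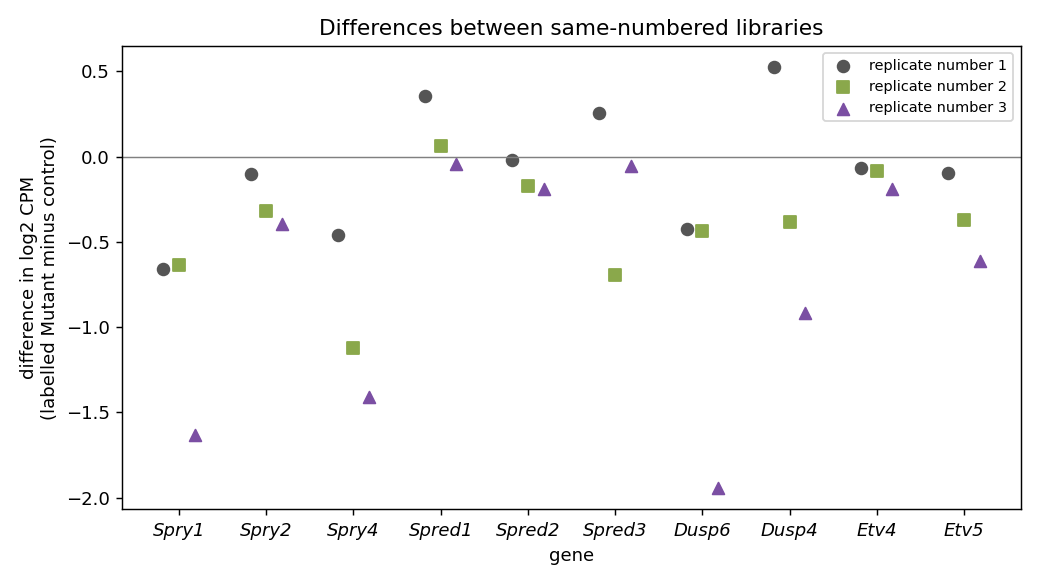
Difference in log2 CPM between same-numbered libraries (libraries labelled Mutant minus controls) for each gene, 1 point per replicate number. For Spry1, Spry4 and Dusp6 the points lie below 0, and the third pair reaches -1.94 in Dusp6.

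With the replicate number as a block, DESeq2 called Spry4 (log2 fold change -0.997 ± 0.20, SE; adjusted p = 8.45e-05), Spry1 (-0.97 ± 0.22; adjusted p = 9.83e-04) and Dusp6 (-0.92 ± 0.26; adjusted p = 0.0177) lower in the libraries labelled Mutant. These were 3 of the 10, where the same fit called 2.39% of all genes with an adjusted p as lower. Etv5 missed the threshold (DESeq2 adjusted p = 0.275), as did Spry2 (adjusted p = 0.487). edgeR with the block called 0 of the 10 and 0% of all genes, and had 5 of the 10 lower at an unadjusted p under 0.05, against 6.77% of all genes. It gave adjusted p-values of 0.138 for Spry4, 0.186 for Spry1 and 0.353 for Dusp6, and limma-voom with the block, which called 0% of all genes, gave 0.106, 0.146 and 0.274. The calls of DESeq2 were lost without the third pair: then 0 of the 10 were called, with log2 fold changes of -0.79 for Spry4 (adjusted p = 0.0646), -0.65 for Spry1 (adjusted p = 0.208) and -0.43 for Dusp6 (adjusted p = 0.705). Without the second pair Dusp6 was not called (DESeq2 adjusted p = 0.775) although its fitted log2 fold change was -1.18, with a wider SE of 0.73, and without the first pair all 3 were.

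**Figure D4:**
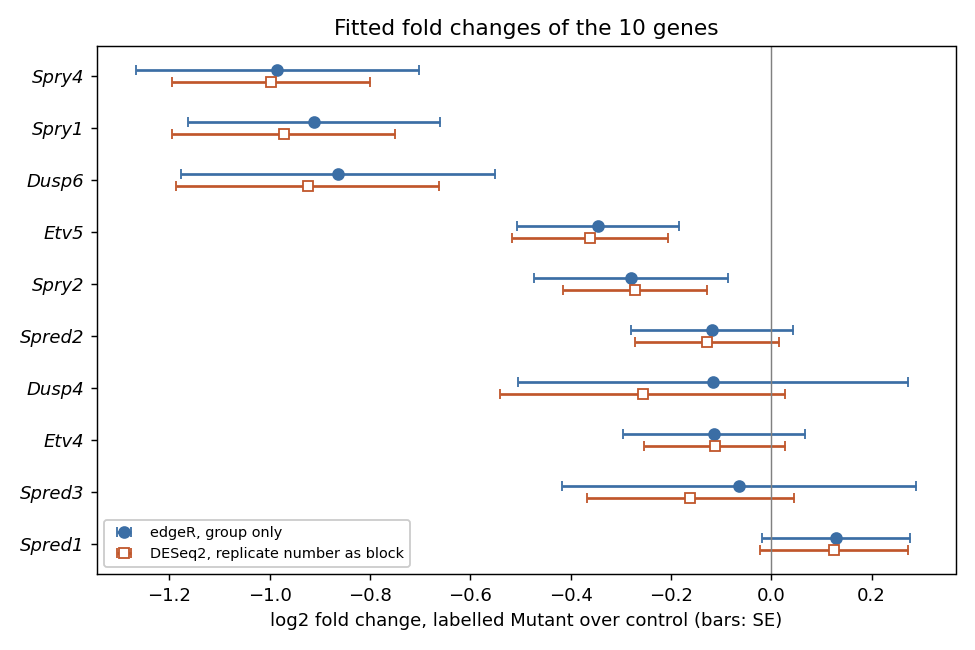
Fitted log2 fold change of each gene (libraries labelled Mutant over controls) with its standard error, from edgeR on the group alone (filled circles) and from DESeq2 with the replicate number as a block (open squares). Spry4, Spry1 and Dusp6 stand apart from the other 7, between -0.86 and -0.997.

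Markers of dividing cells, taken as a sum, were lower under the label Mutant in each numbered pair, as were Spry1, Spry4 and Dusp6. The summed level of 7 proliferation markers was 1381, 2634 and 962.5 CPM among controls and at 736, 1692 and 493 CPM in the libraries labelled Mutant, and DESeq2 with the block called all 7 lower, against 2.39% of all genes with an adjusted p. The 7 astrocyte markers summed to 1948, 830 and 3556 CPM among controls and to 2407, 2548 and 5476 CPM in the other group. DESeq2 with the block called 5 of them higher, against 1.17% of all genes with an adjusted p, and edgeR called 0. The library labelled Mutant3 thus had the fewest proliferation and the most astrocyte marker reads, and the lowest Spry1, Spry4 and Dusp6. Among the oligodendrocyte lineage markers, 9 in all, the sum was 3176 to 4329 CPM among controls and 2870 to 2982 CPM in the libraries labelled Mutant. Olig1 and Olig2, the most abundant of these per length, had lower means under the label Mutant. Most of the list went the other way: edgeR fitted 6 higher and 3 lower, with a median log2 fold change of 1.34. DESeq2 with the block called 5 higher and 2 lower. Neuroblast markers summed to 1033 to 1281 CPM and 1259 to 1368 CPM. In bulk RNA a smaller number of cells of a kind and less RNA per cell cannot be told apart, and the part of these shifts in the result was not tested. The library labelled Mutant2 had more proliferation marker reads than Control1 and Control3 but fewer than Control2. Its levels of Spry1, Spry4 and Dusp6 were below those of every control. The libraries labelled Mutant1 and Mutant3 had fewer proliferation marker reads than every control.

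**Figure D5:**
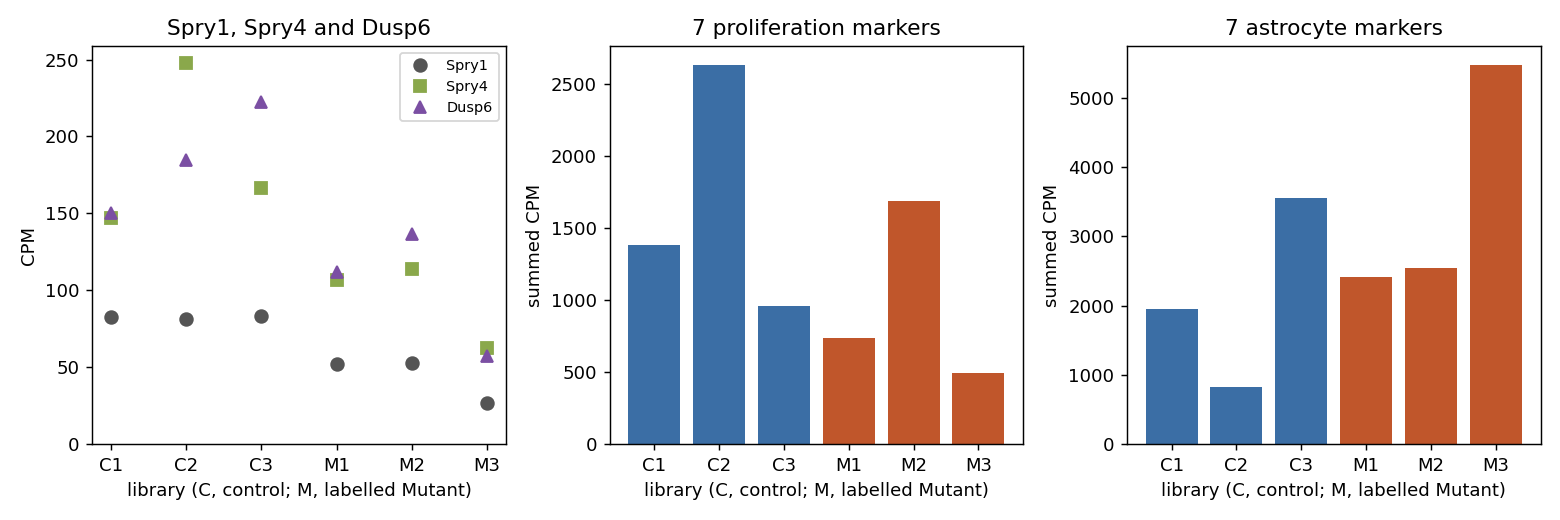
CPM of Spry1, Spry4 and Dusp6 in each library (left), and the summed CPM of 7 proliferation markers (middle) and 7 astrocyte markers (right); C and M stand for control and the label Mutant with the replicate number. M3 is lowest in the left and middle panels and highest in the right panel at 5476 CPM.

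Other genes induced by ERK were read from a list of 18, of which 17 were tested. Of these 13 had a fitted change below 0, against 50% of all genes tested. The median log2 fold change was -0.35, against 1e-04 over all genes tested, and edgeR called 0. The most abundant was Ccnd1, which encodes cyclin D1 and drives entry into the cell cycle: it stood at 1180, 1213 and 1015 CPM among controls and at 809, 752 and 288 CPM in the libraries labelled Mutant. Its groups did not overlap, and the library labelled Mutant3 was far below the rest, as for Dusp6. The log2 fold change was -0.88 ± 0.37 (SE; edgeR unadjusted p = 0.0482, adjusted p = 0.998), and DESeq2 with the block called it lower (adjusted p = 6.36e-04). Ccnd1 overlaps Oraov1 on the opposite strand, with a mean of 318 counts for Oraov1 against 15566. The immediate early gene Egr1 stood at 275, 701 and 505 CPM among controls and 239, 496 and 260 CPM in the other group (log2 fold change -0.57 ± 0.40), and Fos at a log2 fold change of 0.05 ± 0.50. DESeq2 with the block called 4 of the 17 lower and 0 higher, against 2.39% and 1.17% of all genes with an adjusted p. The 4 were Ccnd1, Arc, Egr1 and Nr4a1, the last at an adjusted p of 0.0496 by DESeq2.

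Upstream of ERK no gene passed. Of 14 tested genes for EGF and FGF receptors and ligands, 7 were fitted higher and 7 lower, the median was 0.01, and both edgeR and DESeq2 with the block called 0. The EGF receptor gene Egfr stood at 547 ± 16.6 CPM among controls, against 568 ± 138 CPM under the label Mutant (SD, n = 3 each). The FGF receptor genes Fgfr3 and Fgfr1 had log2 fold changes of 0.13 ± 0.28 and -0.08 ± 0.17 (SE). Of 21 adaptors and kinases from the receptor to ERK, edgeR and DESeq2 with the block called 0 and the median was -0.03. Among these the phosphatase gene Ptpn11 had a log2 fold change of -0.04 ± 0.12 and the RAS gene Nras of 0.28 ± 0.11 (SE), the groups of Nras being apart.

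A list of 22 other regulators of growth factor and MAP kinase signalling, most of them inhibitors, had 20 that were tested. Of these 11 were fitted higher and 9 lower, with a median log2 fold change of 0.05. Both edgeR and DESeq2 with the block called 0. Lrig1, an inhibitor of EGF receptors, stood at 658 ± 264 CPM among controls, against 818 ± 195 CPM under the label Mutant (log2 fold change 0.31 ± 0.32). Pebp1, a RAF inhibitor, stood at 0.11 ± 0.15 and Nf1 at 0.21 ± 0.15. Of 15 other ETS factors and capicua partners the median was -0.03 and edgeR called 0. The capicua gene Cic stood at 269 ± 11.7 and 239 ± 7.91 CPM (log2 fold change -0.17 ± 0.12), Etv1, the close relative of Etv4 and Etv5, at 0.31 ± 0.17, and the ETS repressor gene Erf at -0.36 ± 0.22. DESeq2 with the block called 1 of the 15, Ets1, lower (adjusted p = 1.02e-04), against 2.39% of all genes with an adjusted p.

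Over the 6 libraries the log2 CPM profiles most like that of Dusp6, among 10567 protein-coding genes with a mean of at least 5 CPM, were those of Hpcal1, Prokr1 and P3h2. Hpcal1, a neuronal calcium sensor gene, stood at 27.9, 29.3 and 33.5 CPM among controls and at 23.2, 24.5 and 15.5 CPM in the libraries labelled Mutant. Prokr1, a prokineticin receptor gene, stood at 12.8, 12.7 and 15.2 CPM and at 8.36, 9.33 and 4.70 CPM. P3h2, a collagen prolyl hydroxylase gene, stood at 16.8, 18.7 and 22.2 CPM and at 12.3, 16.6 and 9.34 CPM. They were ranked by Pearson correlation, and 0.804% of the genes compared had a coefficient over 0.9 with Dusp6.

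In the authors' deposited table the log2 ratios of control over knockout are 0.98 for Spry4, 0.91 for Spry1 and 0.87 for Dusp6, with adjusted p of 0.396, 0.412 and 0.798. For each of the other 7 genes the adjusted p in the authors' deposited table is 1 after rounding.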

How the data were processed

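Bulk RNA-seq of 3 control libraries and 3 libraries labelled Sirt6 knockout was analysed. Per the labels' protocols, 2 µg RNA per sample was used with the NEBNext Ultra kit. The submitters' processing notes list HISAT2 2.1.0, Bowtie2 2.2.3 and mm10 but not what each was used for. How reads were counted, with which strand setting and annotation, is not stated in the sources at hand.

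Raw counts per gene were deposited by the authors, whole numbers per the file headers and values. The authors also deposited a mean of scaled counts (a signal column), a ratio (fold) and a log2 ratio of control over knockout, and a p-value with its adjusted p-value; the sign was checked against the counts. All library pairs differed beyond sampling noise (smallest chi-square per degree of freedom 19.4).

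Counts were tested with edgeR 4.0.16 (R 4.3.3, limma 3.58.1): TMM, filterByExpr (minimum count 10, total 15), robust glmQLFit and glmQLFTest on group, Benjamini-Hochberg over the 15087 genes kept, threshold 0.05. Standard errors came from the F statistic. log2 CPM used a prior count of 2. One CPM stands for 16.7 to 18.6 counts. Exon lengths came from GENCODE M21, which held 99.8% of the gene IDs, and gave 9 of the 10 genes the same start and end (not Spry4). Promoters came from RefSeq (GRCm38.p6). Alternatives were DESeq2 1.42.0 on all genes, limma-voom, other scalings and filters, a Y-linked covariate, left-out libraries and the replicate block. The last came with limma-voom and with left-out pairs only after the data were seen. The fits were also run on simulated counts with known changes between groups. That simulation held no shared effect of the replicate number, so it could not test the block fits on paired libraries.

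The numbers come from the titles. After subtraction of group means, libraries with the same number had correlations of 0.43, 0.35 and 0.51 over genes, all over 0.1. Other combinations were at -0.04 or below. The subtraction itself pushes these below 0 on balance once the same-numbered ones are above it, so they add no separate evidence. The numbers were taken to pair the libraries, from the same counts that the block fits used.

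The genes and lists were chosen with earlier results of these data known. Named genes were the 10, the 3 most abundant tested genes of each of 5 pathway lists, any list gene past the edgeR threshold (there were 0) and the 3 genes most like Dusp6; Arc, Nr4a1 and Ets1 were named after their values were seen. A gene this rule names is not reported here.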

Additional observations from a re-analysis of the deposited data

How the results depend on the processing

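For all genes tested, the count of calls was 0 by edgeR, 5 by DESeq2, 1 without a filter on low counts, 465 by DESeq2 with the replicate block, 0 to 2 without each library and 128, 348 and 127 with that block and pair 1, 2 or 3 left out. Of the 10 genes 0 were called by edgeR under every setting run, 3 by DESeq2 with the replicate block, and 0 to 3 with a pair left out. At an unadjusted p under 0.05 stood 3 of the 10 by edgeR, 5 with the replicate block by edgeR and by limma-voom, 1 with the Y-linked covariate, and 2 to 5 without each library. The median log2 fold change of the 10 was -0.20, ran from -0.52 to -0.0926 without each library, and from -0.44 to -0.21 under the replicate block by DESeq2 with a pair left out. Spry1, Spry2, Spry4, Spred2, Dusp6 and Etv5 kept their direction under every setting run. Signs turned for Spred1 (0.13 to -0.0014) and Spred3 (-0.06 to 0.15) against Control3 alone, a fit that lends the single control the spread of the other group. The sign of Spred3 also turned under the replicate block by DESeq2 without the second pair (0.11) and without Control1 or the libraries labelled Mutant2 or Mutant3 (leaving out single libraries gave -0.54 to 0.22). That of Dusp4 turned without the libraries labelled Mutant2 or Mutant3 (range -0.72 to 0.13) and under the replicate block by DESeq2 without the third pair (0.0761), and that of Etv4 without the library labelled Mutant2 (range -0.25 to 0.0161). The cause was not tested. The replicate block by edgeR or limma-voom changed no call. There were 3 libraries a group, and none of the 10 genes had under 222 counts in a library. The parts of counting error and of spread between libraries were not tested.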

Other observations

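Dusp9, which encodes another cytoplasmic ERK phosphatase, was below the filter on low counts and was not tested by edgeR. It had 2, 4 and 1 counts in the controls and 12, 9 and 19 in the libraries labelled Mutant. Mapk3, which encodes ERK1, stood at 77.3, 70.4 and 84.9 CPM among controls and at 92.1, 108 and 108 CPM in the libraries labelled Mutant, with no overlap (log2 fold change 0.41 ± 0.13, SE; edgeR unadjusted p = 0.0142, adjusted p = 0.998; DESeq2 with the replicate block, adjusted p = 0.162). Dusp1, an early-response phosphatase gene, stood at 37.9, 29.7 and 39.7 CPM and at 22.2, 31.0 and 21.7 CPM, with overlapping groups. These genes were singled out after their values were seen.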
